A study of Homo sapiens with 14 samples.

Results

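The miR-221/222 cluster holds 4 mature microRNAs (miRNAs), named hsa-miR-221-5p, hsa-miR-221-3p, hsa-miR-222-5p and hsa-miR-222-3p in the tables: miR-221-5p and miR-221-3p, the arms of the miR-221 hairpin, and miR-222-5p and miR-222-3p, the arms of the miR-222 hairpin. They were taken by name as 4 of the 2588 mature miRNAs in each of the 2 count tables, whatever their values. The libraries came from A549 cells, a human lung adenocarcinoma cell line, and all 14 were small RNA libraries from decapped RNA. N7-methylguanosine (m7G), a guanine with a methyl group, was captured in both of the assays used. In BoRed-seq, RNA was reduced with borohydride (NaBH4) together with free m7GTP in the 2 Red libraries, while in the 2 Ctrl libraries the NaBH4 had been quenched with acid and reduced nothing. Low pH then leaves a site without a base where m7G was reduced, a biotin-coupled aldehyde reactive probe binds it, and streptavidin beads pull the RNA down. In m7G-RIP-seq, the 5 IP libraries held RNA precipitated with an antibody against m7G and eluted with m7GTP. The 5 Input libraries held Input RNA, which in the protocol is an aliquot of the decapped and heat-denatured RNA saved before the antibody step. The groups share 1 cell line, and nothing in the sources used here says that replicates were separate cultures, so p-values measure the spread between these libraries, which may be technical.

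A miRNA hairpin is cut by Drosha and Dicer into a duplex, and the strand that Argonaute keeps, the guide, finds messenger RNAs mainly through its seed, bases 2 to 8. miR-221 and miR-222 are made from a shared primary transcript on the X chromosome, and their 3p arms are the usual guides. Both guides are textbook repressors of CDKN1B, a Cip/Kip inhibitor of cyclin-dependent kinases, and of the receptor KIT, and are abundant in many carcinomas.

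The sequences below, from RefSeq on GRCh38.p14, show how the guides resemble each other and where they part. Seeds are in capitals.
miR-221-3p: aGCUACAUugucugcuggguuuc
miR-222-3p: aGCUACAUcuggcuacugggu
miR-222-5p: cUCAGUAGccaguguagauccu
miR-221-3p lies at chrX:45746180-45746202, miR-222-3p at chrX:45747036-45747056 and miR-222-5p at chrX:45747073-45747094, all on the minus strand. The guides share their first 8 bases, agcuacau, and hence the seed, which only these 2 of the 2281 miRNAs matched to a RefSeq sequence carry. After it, the longest stretch they share is cugggu, of 6 bases.

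The guides have equal numbers of guanines, 6 each, and the RefSeq lengths are 23 bases for miR-221-3p and 21 for miR-222-3p. Runs of at least 2 guanines are capitalised here because the guides differ in them.
miR-221-3p: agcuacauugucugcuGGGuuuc
miR-222-3p: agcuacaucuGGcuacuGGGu
miR-221-3p holds 1 such run and miR-222-3p holds 2, and miR-222-5p holds 0 among its 5 guanines. miR-221-5p is named only. As a description over all miRNAs with a sequence and a test, those with 0 runs had a median log2 enrichment of -0.84 by BoRed-seq and -0.18 by m7G-RIP-seq, those with 1 run had -0.61 and -0.71, those with 2 runs had 0.88 and 0.54, and those with 3 or more had 2.78 and 1.47. Across those miRNAs, which share libraries and overlap in family sequence, Pearson's r of percent guanine with log2 enrichment was 0.41 over the 355 in BoRed-seq and 0.43 over the 602 of the antibody pulldown. miR-221-3p has 26.1% guanine and miR-222-3p 28.6%, both close to the median of 27.3%. Whether the runs play a part in the enrichment of the guides was not tested.

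The hairpins show where the arms sit, with the mature arms that RefSeq lists in capitals.
MIR221: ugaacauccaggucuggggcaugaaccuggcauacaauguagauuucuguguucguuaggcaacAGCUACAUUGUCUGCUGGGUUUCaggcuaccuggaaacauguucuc
MIR222: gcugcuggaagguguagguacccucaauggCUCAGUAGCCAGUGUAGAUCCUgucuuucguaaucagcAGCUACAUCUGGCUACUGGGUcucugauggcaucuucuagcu
MIR221 spans chrX:45746157-45746266 and MIR222 spans chrX:45747015-45747124, with 748 bases between them. In GENCODE 44, both hairpins lie within an intron of the noncoding host gene MIR222HG (transcript MIR222HG-201, chrX:45745211-45770274), and 24 bases of MIR221 overlap an exon of the transcript MIR222HG-203.

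Depth differed between the groups. Library totals were 242085 and 277498 counts in Red, 4678102 to 5874405 in Ctrl, 2854811 to 6452759 in IP and 7097379 to 14874685 in Input, so a count of 0 in the smallest library still allows a share of up to 0.00124% (3 counts). miR-21-5p, an abundant miRNA of many carcinomas, took 79.0% to 80.4% of the counts in Ctrl, 26.7% to 26.9% in Red, 38.04% to 46.3% in Input and 4.64% to 6.27% in IP, which moves every other share. Levels are therefore given as DESeq2 normalised counts, comparable between the libraries of 1 assay, unless a share is named. Of 7 epithelial marker miRNAs, miR-203a-3p was at 0 in all libraries, and their summed share was 0.0193% to 0.0228% in Ctrl, 0.0397% to 0.0786% in Red, 0.0343% to 0.1% in Input and 0.0174% to 0.0216% in IP. For 8 markers of liver, neurons, muscle and blood, it was 0.000153% to 0.000449% in Ctrl, 0.0062% to 0.0115% in Red, 3.2e-05% to 0.000676% in Input and 0.00051% to 0.00214% in IP, with miR-122-5p at 0 throughout. The part of depth, miR-21-5p or marker shares in the results was not tested.

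In Input, taken before the antibody pulldown, miR-222-3p was the most abundant arm of the cluster, followed by miR-221-3p, miR-221-5p and miR-222-5p. In Input they made up 0.583% ± 0.0703, 0.335% ± 0.117, 0.0588% ± 0.0149 and 0.00077% ± 0.00047 of the counts (SD, n = 5). No neighbours in this order overlapped between Input libraries. Among all miRNAs, the mean levels ranked 21st, 31st, 71st and 357th in Input. They ranked 24th, 31st, 73rd and 373rd in Ctrl. The order was the same in each Ctrl library. Normalised counts of the 3p arms did not overlap there (1771 to 2714 for miR-222-3p, 1369 to 1764 for miR-221-3p), but the ranges of their shares did. Their shares there were 0.102% to 0.167% for miR-222-3p and 0.0787% to 0.109% for miR-221-3p. The protocol takes control RNA through the low-pH and probe steps too, so Ctrl need not show levels before a pulldown.

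BoRed-seq asks which miRNAs become bound by the probe after reduction. miR-222-3p was enriched in Red, miR-221-5p was depleted, and miR-221-3p passed the test in neither direction. With the DESeq2 Wald test and Benjamini-Hochberg adjustment, 1 of the 3 tested arms was called enriched, against 32.2% of the 400 miRNAs tested, and 1 was called depleted, against 27.2%, so that 2 of 3 were called beside 59.5% of all. A call is an adjusted p under 0.05.

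miR-222-3p had 2714 and 1771 normalised counts in Ctrl and 5185 and 3617 in Red. Both Red libraries lay above both Ctrl libraries, as they did for 34.9% of the 453 miRNAs past the filter on low counts. The log2 enrichment was 0.97 ± 0.34 (SE, 2 against 2 libraries, adjusted p = 0.00775). It missed the threshold without Ctrl 2 (0.66, adjusted p = 0.121) and without Red 1 (0.83, adjusted p = 0.132). It also missed it with no count filter (0.50, adjusted p = 0.203) and with total-count scaling that leaves out miR-21-5p (0.21, adjusted p = 0.632).

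miR-221-3p, which carries the same seed, had 1764 and 1369 normalised counts in Ctrl and 1196 and 1038 in Red. Both Red libraries lay below both Ctrl libraries, as for 46.6% of miRNAs. The log2 enrichment was -0.49 ± 0.30 (adjusted p = 0.143), and it was called depleted with edgeR (-0.67) and with no count filter (-0.97), while its sign turned with total-count scaling (0.61) and with Ctrl thinned to the depth of Red (0.048). Its raw share was higher in Red (0.133% and 0.153%) than in Ctrl (0.0787% to 0.109%), while normalised to the other miRNAs it was lower.

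miR-221-5p, the minor arm of the miR-221 hairpin, had 443.1 and 347.3 normalised counts in Ctrl and 125.9 and 183.5 in Red. The groups did not overlap, with Red below Ctrl as for 46.6% of miRNAs. By raw share they did, at 0.01404% and 0.02703% in Red and 0.02725% and 0.01997% in Ctrl. The log2 enrichment was -1.34 ± 0.38 (adjusted p = 0.00085). The raw counts in Red were 34 and 75, so this value rests on few reads, and the call was lost without Ctrl 1 (adjusted p = 0.0862) or Red 1 (-0.97, adjusted p = 0.104). It was also lost with total-count scaling, where the log2 enrichment was -0.20.

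miR-222-5p could not be tested in BoRed-seq. Its raw counts were 27 and 9 in Ctrl and 5 and 1 in Red, which reach the minimum of 10 in only 1 library. Its share in Red 2 was 0.00036% with a 95% Wilson interval of 6.36e-05% to 0.00204%, which spans both Ctrl values, 0.00046% and 0.000192%. In Red 1 it was 0.00207% with an interval of 0.000882% to 0.00484%, which lies above both Ctrl values. Such intervals cover counting error only.

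**Figure D1:**
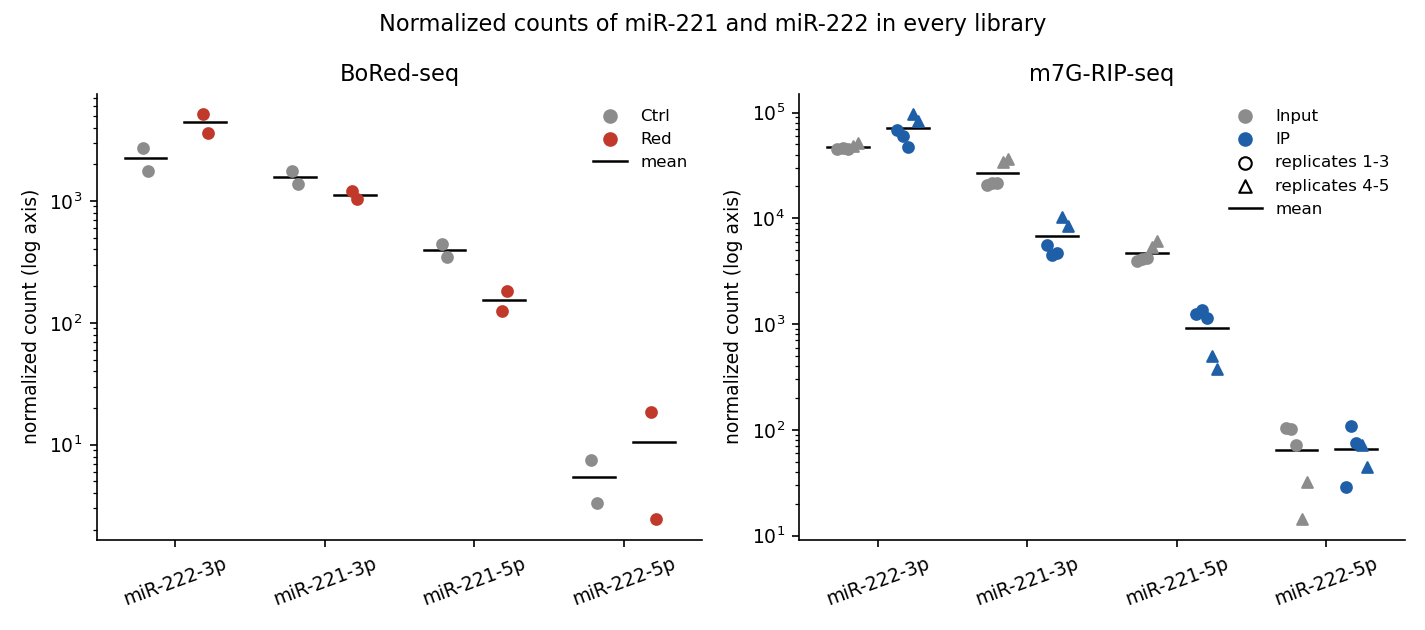
Normalised counts (log axis) of the 4 arms in every library, with Ctrl and Red on the BoRed-seq side and Input and IP on the m7G-RIP-seq side, a point for each library (triangles mark m7G-RIP-seq replicates 4 and 5) and a bar for each group mean. miR-222-3p rises in both pulldowns (2242 to 4401 and 47347 to 71222), and both miR-221 arms sit lower in IP than in Input in every library.

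m7G-RIP-seq asks which miRNAs the antibody retains. Here miR-222-3p was enriched again and both miR-221 arms were depleted, so that the log2 enrichments of the guides lay 2.59 apart, beside 1.46 in BoRed-seq. Of the 4 arms, 1 was called enriched, against 27.3% of the 670 miRNAs tested, and 2 were called depleted, against 29.9%, so that 3 of 4 were called beside 57.2% of all.

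miR-222-3p had 45227, 46567, 45058, 48689 and 51194 normalised counts in Input 1 to 5 and 68196, 59674, 47296, 97388 and 83556 in IP 1 to 5. The groups overlapped through IP 3, the smallest IP library, which lay below Input 4 and Input 5. The log2 enrichment was 0.59 ± 0.21 (SE, 5 against 5 libraries, adjusted p = 0.0114). Leaving out Input 1 brought the adjusted p to 0.053, with a log2 enrichment of 0.52, and total-count scaling without miR-21-5p brought the enrichment to 0.21 (adjusted p = 0.384).

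miR-221-3p had 20465, 21807, 21810, 33941 and 36401 normalised counts in Input 1 to 5 and 5652, 4542, 4712, 10314 and 8458 in IP 1 to 5. All 5 IP libraries lay below all 5 Input libraries, as they did for 24.2% of miRNAs. Libraries 4 and 5 were the highest in both groups. The log2 enrichment was -1.997 ± 0.30 (adjusted p = 1.98e-10), and it was called in every one of the 19 alternative analyses run.

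miR-221-5p had 3954, 4113, 4223, 5359 and 6061 normalised counts in Input 1 to 5 and 1249, 1350, 1134, 501.6 and 378.2 in IP 1 to 5. The groups again did not overlap, with IP below Input as for 24.2% of miRNAs. Input 4 and 5 were the highest Input libraries, while IP 4 and 5 were the lowest IP libraries. The log2 enrichment was -2.36 ± 0.36 (adjusted p = 2.74e-10) and was called in all 19 alternatives.

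miR-222-5p, the rarest arm, had 104, 101, 71.4, 14.3 and 32 normalised counts in Input 1 to 5 and 29, 108.3, 75.9, 71.9 and 44.4 in IP 1 to 5. The groups overlapped almost entirely, and the log2 enrichment was 0.03 ± 0.55 (adjusted p = 0.966). Its raw counts lay between 22 and 159.

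**Figure D2:**
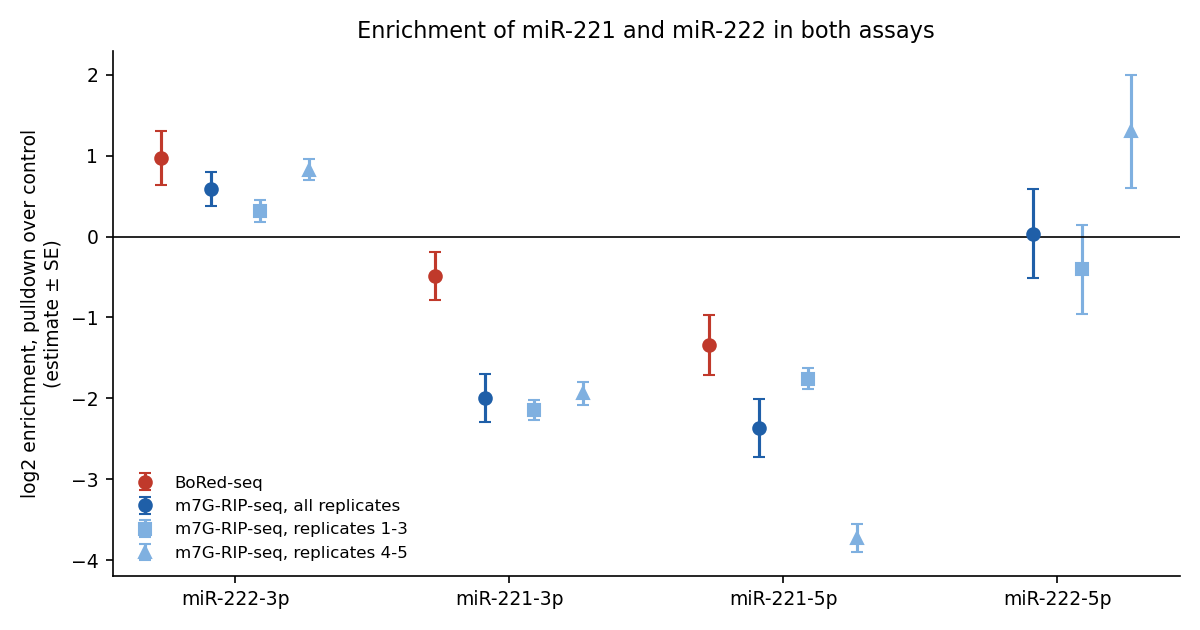
Log2 enrichment of each arm with its SE in BoRed-seq, in all of m7G-RIP-seq, and in replicates 1 to 3 and 4 to 5 of the latter apart, with values above 0 higher in the pulldown and no BoRed-seq point for miR-222-5p. miR-222-3p lies above 0 in both assays (0.97 and 0.59), miR-221-5p below 0 in both (-1.34 and -2.36), and miR-221-3p lies farther below 0 in m7G-RIP-seq (-1.997) than in BoRed-seq (-0.49).

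The assays were compared arm by arm, since they share no library. miR-221-3p differed between them, by 1.51 ± 0.42 on the log2 scale (BoRed-seq minus m7G-RIP-seq, SE, two-sided z test, adjusted p = 0.00174 over 384 miRNAs, of which 38% were called). For miR-221-5p the difference was 1.02 ± 0.52 (adjusted p = 0.104). For miR-222-3p it was 0.38 ± 0.40 (adjusted p = 0.472), so the data do not separate the enrichments of this guide in the assays, nor do they show them to be equal.

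Ratios within a library need no scaling between libraries, so they compare the guides directly. There were 1.29 to 1.54 reads of miR-222-3p for each read of miR-221-3p in Ctrl and 3.48 to 4.33 in Red. In Input there were 1.41 to 2.21, and in IP 9.44 to 13.1. Both pulldowns thus held relatively more miR-222-3p than their controls, with no overlap in either assay. The log2 change was 1.46 in BoRed-seq (exact two-sided permutation test, p = 0.333, the smallest that 2 against 2 libraries can give, 0.533 adjusted over 8 ratio tests). It was 2.58 in m7G-RIP-seq (exact permutation p = 0.00794, the smallest for 5 against 5, 0.0635 adjusted), higher in 5 of 5 IP libraries than in any Input library. Neither change passed 0.05 after adjustment. Lack of overlap was also common among single miRNAs. Of 453 by BoRed-seq, 34.9% lay higher and 46.6% lower in every Red library than in any Ctrl library. Of 670 by the antibody pulldown, 18.2% lay higher and 24.2% lower in every IP library than in any Input library. No such share was computed for ratios of miRNAs outside the cluster. As a share of both guides together, miR-222-3p went from 56.4% to 60.6% in Ctrl to 77.7% to 81.3% in Red, and from 58.4% to 68.8% in Input to 90.4% to 92.9% in IP.

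The 5p arms showed a ratio change of the same sign. The log2 ratio of miR-222-5p to miR-221-5p was higher in the pulldown by 2.09 in BoRed-seq, on 1 and 5 raw counts of miR-222-5p in Red, and by 2.75 in m7G-RIP-seq (exact permutation p = 0.0238, 0.0952 adjusted). The latter was 1.18 in replicates 1 to 3 and 5.10 in replicates 4 and 5, and the former was 0.59 without Red 1 and 3.59 without Red 2.

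The arms of 1 hairpin were compared in the same way. In Ctrl there were 3.94 to 3.98 reads of miR-221-3p for each read of miR-221-5p, and 5.62 to 9.38 in Red, a log2 change of 0.87 (0.51 to 1.24 with 1 library left out). In Input there were 5.16 to 6.33 and in IP 3.36 to 22.3, so the IP range enclosed that of Input, with a log2 change of 0.49 (exact permutation p = 0.444, 0.593 adjusted), which was 0.11 to 0.79 with 1 library left out. miR-221-3p made up 83.8% to 86.4% of the reads of its hairpin in Input and 77.1% to 95.7% in IP. On the miR-222 hairpin, miR-222-3p made up at least 99.6% of the reads in every library, and the log2 change of miR-222-3p over miR-222-5p was 0.24 for Red against Ctrl and 0.31 for IP against Input (exact permutation p = 0.698 for the latter, which was 0.037 to 0.77 with 1 library left out).

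**Figure D3:**
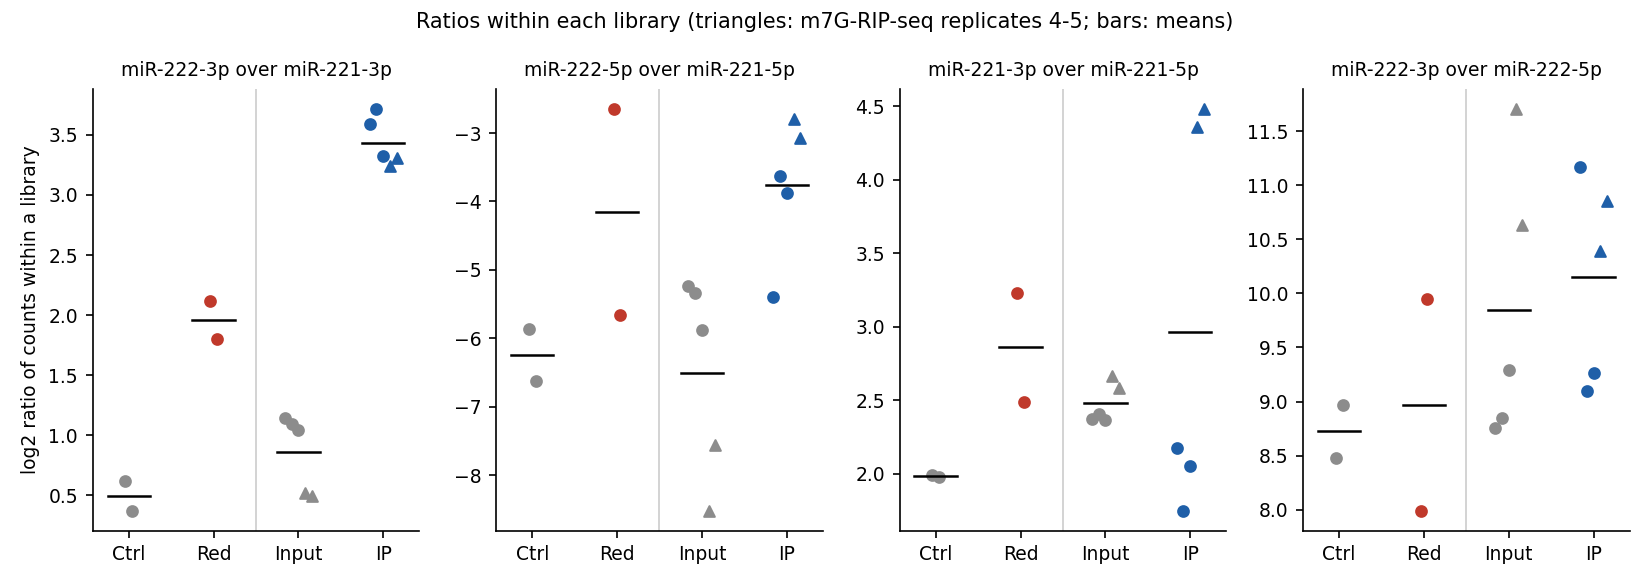
Within-library ratios on the log2 scale between the 3p arms, between the 5p arms and between the arms of each hairpin, a point for each library and a bar for each group mean, in Ctrl, Red, Input and IP (triangles mark replicates 4 and 5). As plain ratios, that of miR-222-3p to miR-221-3p is 9.44 to 13.1 in IP against 1.41 to 2.21 in Input, while the ratio of the miR-221 arms in IP splits into 3.36 to 4.52 in replicates 1 to 3 and 20.5 to 22.3 in replicates 4 and 5.

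The split of the miR-221 arms followed the replicates of m7G-RIP-seq. The second principal component of all miRNAs (15.3% of the variance) parted replicates 1 to 3 from replicates 4 and 5 in both Input and IP, and what differed between these replicates is not given in the sources used here. The depletion of miR-221-5p was -1.75 ± 0.13 in replicates 1 to 3 and -3.72 ± 0.17 in replicates 4 and 5, a difference of -1.98 ± 0.21 (DESeq2 interaction term, chosen after seeing the data, adjusted p = 6.68e-19). Of 488 miRNAs with this test, 26.8% were called. For miR-221-3p, the values were -2.14 ± 0.12 and -1.94 ± 0.14, with a difference of 0.20 ± 0.19 (adjusted p = 0.505). For miR-222-3p they were 0.32 ± 0.14 and 0.83 ± 0.13, with a difference of 0.50 ± 0.21 (adjusted p = 0.0618). The ratio of miR-221-3p to miR-221-5p was lower in IP (3.36 to 4.52) than in Input (5.16 to 5.30) for replicates 1 to 3, and higher in IP (20.5 to 22.3) than in Input (6.01 to 6.33) for replicates 4 and 5. For miR-222-5p the enrichments were -0.41 ± 0.55 and 1.30 ± 0.70 (adjusted p of the difference = 0.128). The ratio of the guides was higher in IP in each of these sets of replicates, by 2.45 and 2.77 on the log2 scale.

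The arms were set beside those of other hairpins, as a description. In BoRed-seq, 86 hairpins had both arms tested, and the log2 enrichment of 3p exceeded that of 5p by 0.85 for miR-221, a difference smaller in size than that of 52 hairpins and than the median size of 1.28. In m7G-RIP-seq, the difference was 0.37 for miR-221 and 0.55 for miR-222 among 155 hairpins with a median size of 1.53, and 129 and 113 hairpins had a larger one. Both arms were called depleted in 25 of these hairpins, miR-221 among them, both were called enriched in 14, and the arms were called in opposite directions in 21. The 0.37 of miR-221 stands between opposite values of its arm ratio in the replicates, -0.39 in 1 to 3 and 1.80 in 4 and 5. These are changes of count ratios, and the other hairpins were not compared within these sets of replicates.

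**Figure D4:**
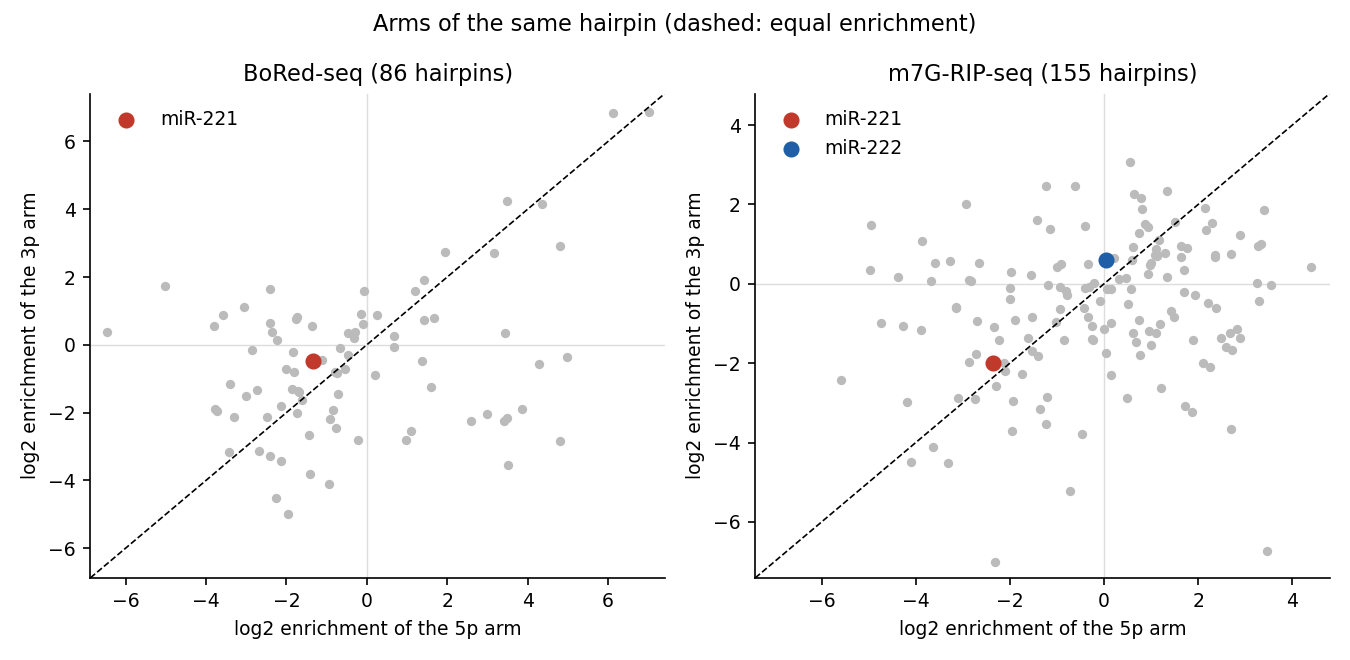
Log2 enrichment of the 5p arm (x axis) against the 3p arm (y axis), a point for each hairpin with both arms tested, by assay, with miR-221 marked in both panels and miR-222 in that of m7G-RIP-seq, and a dashed line where the arms are equal. In m7G-RIP-seq the miR-221 hairpin lies low on both axes (-2.36 and -1.997) and miR-222 near the diagonal (0.03 and 0.59).

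The guides were also set beside other pairs of miRNAs that share a seed. In m7G-RIP-seq, their log2 enrichments differed by 2.59, while the median size over 170 pairs was 0.99 and 18 pairs differed by more. They were among the 6 pairs called in opposite directions. In BoRed-seq they differed by 1.46, less than the median of 1.69 over 124 pairs, and 68 pairs differed by more. These are descriptions: every pair within a seed was counted, so larger families weigh more and the pairs are not independent.

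**Figure D5:**
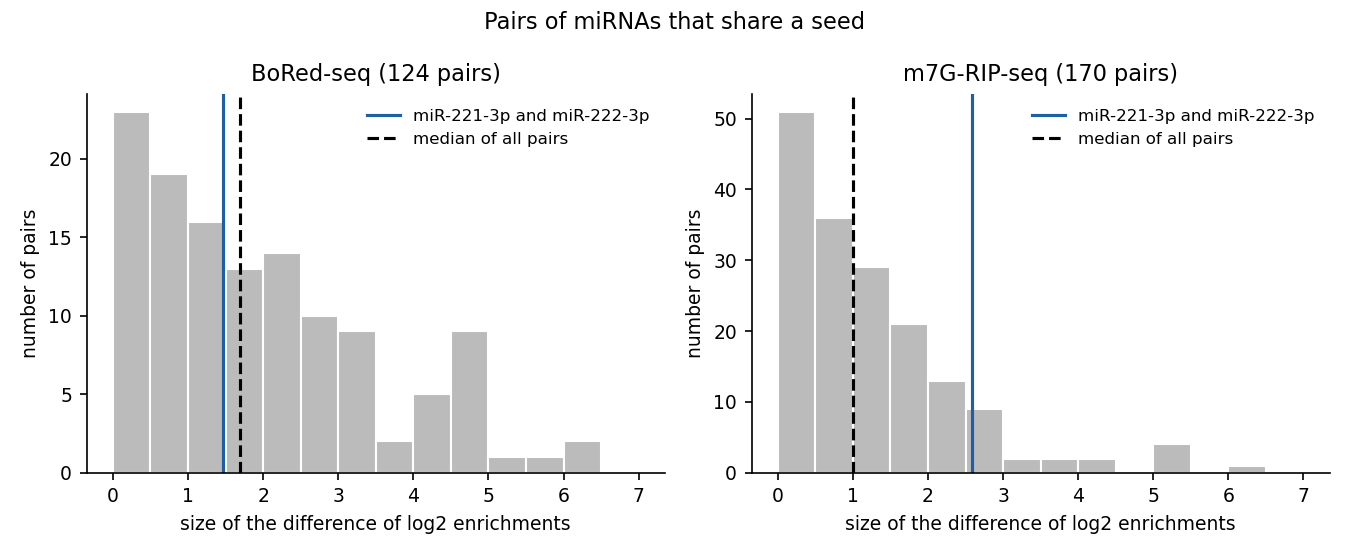
Histogram of the size of the difference in log2 enrichment (x axis) over pairs of miRNAs that share a seed (y axis, number of pairs), by assay, with a solid line at miR-221-3p and miR-222-3p and a dashed line at the median. The pair lies at 2.59 in m7G-RIP-seq, above the median of 0.99, and at 1.46 in BoRed-seq, below the median of 1.69.

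Across the 10 m7G-RIP-seq libraries, the guides followed different miRNAs. Among 149 abundant miRNAs, the log2 levels most like those of miR-221-3p were those of miR-93-5p (Pearson's r = 0.991), miR-29a-3p (0.988) and miR-27b-3p (0.984). These were depleted in IP by -2.10, -2.55 and -1.75 on the log2 scale. The level of miR-221-5p correlated with that of miR-221-3p at 0.767, in 63rd place. Most like miR-222-3p were miR-30a-3p (0.937), miR-125a-5p (0.935) and miR-106b-3p (0.929), with log2 enrichments of 1.08, 0.64 and 0.52. miR-221-3p and miR-222-3p correlated with each other at -0.446. These are descriptions, since the libraries fall into Input and IP and share their depth and scaling.

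Other mature miRNAs encoded on the X chromosome were counted from a list of 62 arms. The list was chosen by name and does not hold every miRNA of this chromosome, so the counts hold for its members only. It includes both arms of many hairpins and near-identical copies, so the calls of its members are not independent. In BoRed-seq, 30 were tested, of which 3 (10%) were called enriched and 12 (40%) depleted, beside 32.2% and 27.2% of all miRNAs tested, with a median log2 enrichment of -1.08 beside -0.09 over all 400 miRNAs tested. In m7G-RIP-seq, 38 were tested, of which 2 (5.26%) were called enriched and 19 (50%) depleted, beside 27.3% and 29.9% of all, with a median of -0.95 beside 0.02 over all 670. Depletion was called in both assays for 11 of the 30 tested in both (36.7%) and enrichment for 0, beside 22.7% and 18.2% of the 384 miRNAs tested in both. The lowest by mean included miR-361-5p (-2.004 and -4.26 in BoRed-seq and m7G-RIP-seq). They also included miR-500a-5p and miR-500b-5p (-2.83 and -2.86 in m7G-RIP-seq), near-identical copies whose counts are uncertain. Both were at 0 counts in each Red library, at least 5.34-fold lower than Ctrl at a floor of 3 counts per library. Their Ctrl counts were also the same, 110 and 183.

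A second list held 7 guides that, like miR-221-3p and miR-222-3p, are textbook repressors of Cip/Kip inhibitors, the proteins that hold cyclin-dependent kinases in check. In m7G-RIP-seq, 5 of 7 (71.4%) were called depleted and 0 enriched, beside 29.9% and 27.3% of all, with a median of -2.46 beside 0.02. In BoRed-seq, 2 of 7 (28.6%) were called depleted, near the 27.2% of all, and 1 (14.3%), miR-20b-5p, was called enriched (4.17), with a median of -0.55 beside -0.09. miR-106b-5p (-2.23 and -3.59) and miR-20a-5p (-0.77 and -2.46) were called depleted in both assays. The 5 guides depleted by the antibody pulldown were miR-17-5p, miR-20a-5p, miR-93-5p, miR-106a-5p and miR-106b-5p. These overlap in family sequence, as does miR-20b-5p (-0.89, not called), so the 5 calls are not independent. The counts therefore describe this family rather than Cip/Kip repressors in general. miR-25-3p, the member outside this family, was not called by that pulldown (0.73, DESeq2 Wald test, adjusted p = 0.124). The lists share miR-106a-5p and miR-20b-5p, and several of these guides have near-identical relatives among which reads can be split.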

How the data were processed

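The deposited values were raw read counts per mature miRNA, 1 table per assay. The authors trimmed reads with Trimmomatic, aligned them to GRCh38 (STAR in the study's methods, Bowtie2 in the submitters' processing notes, versions not given in the sources used here), and counted them over miRBase 22 with featureCounts. Reads matching several loci were kept up to a limit, so near-identical miRNAs share uncertain counts. Groups came from the sample labels.

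Enrichment was tested with the tool of the study, DESeq2 (here 1.42.0 in R 4.3.3), without covariates, comparing each pulldown with its control. A filter chosen here asked for 10 counts or more in 2 or more libraries of BoRed-seq (453 miRNAs, 400 with an adjusted p) and in 5 or more of m7G-RIP-seq (670). Size factors were medians of ratios, log2 values were not shrunken, p-values were Benjamini-Hochberg adjusted, and edgeR 4.0.16 was an alternative. The fits were also run on simulated counts with the same spread setting for all miRNAs and no sets of replicates. Such counts cannot show how the fits behave on these libraries. Ratios used a pseudocount of 0.5 and an exact permutation test. The members and lists were chosen with earlier results of these data known. Named miRNAs were the 4 arms and the 3 most like each guide. The latter came from miRNAs with a mean of at least 100 normalised counts in both assays. Up to 3 per list and direction called in both assays were also named, as were the 7 guides of the Cip/Kip list.

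Replicates differed by more than counting error, with a chi-square of 10.4 to 1382 for each degree of freedom. Input and IP share replicate numbers in the labels, and deviations from the group means correlated at 0.146 to 0.387 in the same-numbered pairs, so a replicate block was fitted as an alternative. Pairs of other numbers within replicates 1 to 3 (0.0760 to 0.171) and within 4 and 5 (0.359 to 0.373) correlated similarly, so the pairing cannot be told apart from these sets. It changed no call of an arm.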

Additional observations from a re-analysis of the deposited data

Results flagged for a closer look

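miR-221-5p is listed because its depletion by the antibody differed between replicates of m7G-RIP-seq: replicates 4 and 5 minus replicates 1 to 3 gave -1.98 on the log2 scale (DESeq2 interaction term, chosen after seeing the data, adjusted p = 6.68e-19). It was depleted in both sets.

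miR-221-3p is listed because its enrichment differed between the assays, by 1.51 on the log2 scale (BoRed-seq minus m7G-RIP-seq, two-sided z test, adjusted p = 0.00174). An interaction term over all 14 libraries (adjusted p = 0.0126) used the same counts and size factors. Its equal difference was therefore built in and is no separate check. With total-count scaling the difference was 2.30. Dixon's test for a single outlying library found none in the 16 groups of 5 libraries checked, but it cannot find 2 libraries that stand apart together, as replicates 4 and 5 do.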

How the results depend on the processing

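Both miR-221 arms stayed depleted in m7G-RIP-seq in all alternatives. Scaling mattered most in BoRed-seq, where it moved the median of all miRNAs by 1.08 with total counts and -0.77 with total counts without miR-21-5p. With total counts, the log2 enrichment there was 0.61 for miR-221-3p and -0.20 for miR-221-5p (call lost). Without miR-21-5p it was -1.23 for miR-221-3p (called) and 0.21 for miR-222-3p (call lost), and in m7G-RIP-seq 0.21 for miR-222-3p (call lost, adjusted p = 0.384) and -0.32 for miR-222-5p. Relative to the median of all miRNAs, miR-222-3p stayed at 1.28 to 1.34 for Red and at 0.53 to 0.57 for IP over the scalings, and in Red miR-221-3p lay at -0.31 to -0.12 and miR-221-5p at -1.02 to -0.95. The main BoRed-seq median used here was -0.32, over all 453 miRNAs past the filter. Other filters take it over other miRNAs: it was 0.74 over 1266 with no count filter. With 10 counts in every library it was 0.04 over 191. Against these 2 medians, miR-222-3p in Red lay at -0.25 and 0.73, and miR-221-3p at -1.71 and -0.74. miR-221-3p in BoRed-seq was called at -0.67 with edgeR, -0.97 with no count filter and -0.70 with 10 counts in every library, and was 0.048 with Ctrl thinned to Red, where miR-221-5p was -0.65 (call lost). With no filter, miR-222-3p was 0.50 there (call lost). miR-222-5p in m7G-RIP-seq was -0.0033 with no filter and -0.41 in replicates 1 to 3. The cause was not tested.

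miRNAs called enriched in BoRed-seq numbered 71 with 10 counts in every library, and those called depleted numbered 46 with total counts, 167 both without miR-21-5p and with edgeR, 71 with 10 counts in every library and 62 with thinning. In m7G-RIP-seq, 116 were called depleted with 10 counts in every library. Enriched calls were 54.2% of BoRed-seq calls, and 79.2%, 37.7%, 43.4% and 65.7% with total counts, without miR-21-5p, with edgeR and with thinning. In m7G-RIP-seq they were 47.8%, and 58.6% and 36.6% with total counts with and without miR-21-5p. With total counts, the assay difference was called for miR-221-5p (1.83) and miR-222-3p (1.13).

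Leaving out 1 library gave BoRed-seq log2 enrichments of -0.70 to -0.40 (miR-221-3p), -1.73 to -0.97 (miR-221-5p) and 0.66 to 1.203 (miR-222-3p), and 97 to 115 enriched and 62 to 86 depleted calls. In m7G-RIP-seq it gave 0.46 to 0.68 (miR-222-3p) and -0.23 to 0.25 (miR-222-5p), and log2 ratio changes of 2.48 to 2.65 (miR-222-3p over miR-221-3p) and 2.25 to 3.16 (5p arms). The BoRed-seq change of miR-222-3p over miR-222-5p was -0.73 to 1.22. In m7G-RIP-seq, miR-221-3p over miR-221-5p was -0.39 in replicates 1 to 3 and miR-222-3p over miR-222-5p was -0.54 in replicates 4 and 5.

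With a replicate block, log2 enrichments in m7G-RIP-seq were -2.03 (miR-221-3p), -2.50 (miR-221-5p), 0.55 (miR-222-3p) and 0.23 (miR-222-5p). In BoRed-seq they were -0.48, -1.35 and 0.98 for the first 3. The protocol prepares a reduction and a control reaction for each sample. With 2 replicates the deviations within a group mirror each other, so the BoRed-seq correlation of 0.110 cannot show whether the numbers pair samples. The paired ratio of the guides had an exact p of 0.0625, the smallest for 5 pairs.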
